A study of Mus musculus with 20 samples.

Results

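Voltage-gated sodium and calcium channel subunits were examined in hippocampi of Qtrt1-/- and wild-type mice. The members are all rows of the deposited count table whose symbol starts with Cacna1, Cacna2d or Cacnb, or is Scn followed by digits and a or b. Scn4b was left out because it served as a marker of striatum. The rule gave 31 of 18054 genes, 13 of sodium channels and 18 of calcium channels.

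Sodium channels carry the rising phase of the action potential through a large pore-forming alpha subunit, and small beta subunits adjust gating and attach the channel to adhesion molecules. A calcium channel has a pore-forming alpha1 subunit, an extracellular alpha2delta subunit that helps to bring it to the cell surface, and a cytoplasmic beta subunit that binds the alpha1 chain. In hippocampal neurons, P/Q-type and N-type channels admit the calcium that releases transmitter, L-type channels signal to the nucleus, and T-type channels open close to the resting potential.

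The study compared hippocampi of Qtrt1-/- mice with those of wild-type mice in both sexes. Qtrt1 codes for the active part of tRNA-guanine transglycosylase, which puts queuosine at the wobble position of 4 tRNAs, those that read histidine, tyrosine, asparagine and aspartate codons. Each of the 10 animals gave 1 library of ribosome footprints, the mRNA stretches that ribosomes shield from nuclease, and 1 library of input RNA, the cytoplasmic RNA of the same lysate. The title of the series names learning, memory and codon-dependent elongation that differ with sex, so genotypes were compared within each sex. There were 3 Qtrt1-/- and 3 wild-type females and 2 Qtrt1-/- and 2 wild-type males. Females were 6 months and 21 or 22 days old. In each genotype, 1 male was 6 months and 18 days old and the other 5 months and 16 days. The labels describe the allele as Qtrt1-/- only.

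Footprint libraries held 5357812 to 15517982 counts and input libraries 9000662 to 13637370. The 31 members took 0.479 to 0.635% of footprint counts and 0.601 to 0.692% of input counts. Qtrt1 had 1 to 10 footprint counts in Qtrt1-/- libraries, against 28 to 94 in wild-type libraries. The female groups also differed in markers of neighbouring tissue. Striatum markers, a list of 16 genes, summed to 355 to 964 CPM (counts per 1e6 of the TMM effective library size, set within each assay) in footprints of Qtrt1-/- females, against 724 to 1732 CPM in wild-type females, and 16 of 16 had a negative fold change (4 called by edgeR). Choroid plexus markers, a list of 20 genes, summed to 2346 to 9661 CPM in Qtrt1-/- females, against 199 to 6155 CPM in wild-type females, and 19 of 20 had a positive one (2 called higher and 1 lower). In input RNA the striatum sums were 465 to 980.2 CPM in Qtrt1-/- females and 823 to 1542 CPM in wild-type females, and the choroid plexus sums were 902 to 3613 CPM in Qtrt1-/- females, against 96.5 to 1981 CPM in wild-type females. General neuron markers, 11 tested, all had negative fold changes in female footprints (median −0.22, 3 called), with sums of 11480 to 12370 CPM in Qtrt1-/- females and 12850 to 14740 CPM in wild-type females. Meningeal fibroblast markers, 12 tested, all had positive fold changes (median 0.73, 6 called), with sums of 622 to 732.5 CPM in Qtrt1-/- females and 409.8 to 589 CPM in wild-type females. In males all 14 tested thalamus markers had negative fold changes (median −0.57, none called), with sums of 544 to 635 CPM in Qtrt1-/- males, against 656.5 to 932.5 CPM in wild-type males. Of the striatum and choroid plexus lists Drd3 was at 0 in 3 of the 20 libraries and Tmem72 in 1. Markers of the dentate gyrus and of the CA fields, which define hippocampus, summed to at least 363 and 1044 CPM in every library. In female footprints dentate sums were 671 to 725 CPM in Qtrt1-/- and 472 to 641 CPM in wild-type animals. Of the 12 markers, 10 had positive fold changes in females and 12 in males, none called. Cortex and subiculum footprint sums were 786 to 887 CPM in Qtrt1-/- and 926 to 1126 CPM in wild-type females. In males they were 750 to 773 CPM in Qtrt1-/- and 799.5 to 1082 CPM in wild-type animals. Of 19 markers, 12 were negative in females (4 called lower, 2 higher) and 17 in males. In bulk tissue, fewer cells of a type and less RNA per cell cannot be told apart, and this holds for every level below.

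Channel subunits spanned a wide range of footprint levels. Per kilobase of coding sequence, the small sodium channel beta subunits Scn2b and Scn3b were high and were followed by Cacna2d1 and the main neuronal alpha subunits. Scn2b, a beta subunit linked to the alpha chain by a disulfide bond, had 494 ± 24.4 CPM per kb in Qtrt1-/- females and 444 ± 30.2 in wild-type females (SD, n = 3 each). Among the alpha subunits, Scn2a had 161 ± 6.52 CPM per kb in Qtrt1-/- females and 158 ± 5.2 in wild-type females, and Scn8a had 138 ± 5.02 in Qtrt1-/- females and 165 ± 4.04 in wild-type females. Both are known as alpha subunits of excitatory axons. Averaged over the 5 wild-type animals, Scn2a and Scn8a were close, at 141 and 139 CPM per kb, and their values overlapped. The order differed by sex, with Scn8a higher in wild-type females and Scn2a higher in wild-type males, at 114 against 101 CPM per kb.

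The first member of each class by wild-type footprint level was Scn2a among sodium channel alpha subunits, Scn2b among beta subunits, Cacna1c among L-type chains, and Cacna1e, the R-type chain, among the P/Q, N and R group. Cacna1i led the T-type chains, Cacna2d1 the alpha2delta subunits and Cacnb4 the calcium channel beta subunits. Their mean wild-type levels were 21.3 CPM per kb for Cacna1c, 101 for Cacna1e, 22.7 for Cacna1i, 186 for Cacna2d1 and 90.2 for Cacnb4. Cacna2d3 averaged 90.2 CPM per kb as well, the same mean as Cacnb4. At the other end stood Cacna1f, the L-type chain of retina, with 0 to 3 footprint counts and 0 to 5 input counts per library, and Scn4a, the alpha subunit of skeletal muscle, with 0 to 3 and 0 to 2. Cacna1s, the L-type chain of skeletal muscle, had 1 to 5 and 5 to 24 counts. The sensory neuron subunits were also low, Scn11a with 0 to 16 footprint and 0 to 14 input counts and Scn10a with 1 to 15 and 1 to 12. Of the 31 members, 27 passed the filter on low counts in footprints, 28 in input RNA and 29 in the test of both together. Scn4a, Cacna1f, Cacna1s and Scn11a failed it in footprints, and Scn4a, Cacna1f and Scn10a failed it in input RNA.

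**Figure D1:**
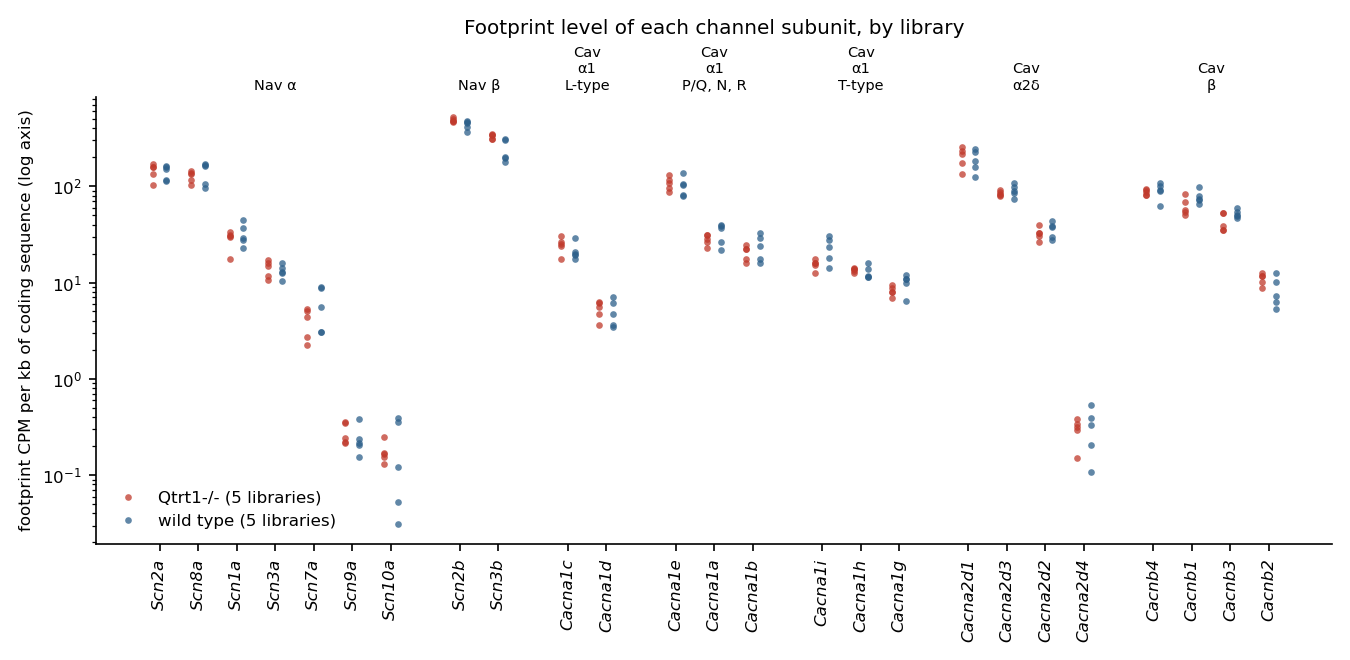
Footprint level of 25 channel subunits that passed the filter, in CPM per kb of coding sequence on a log axis, with 1 point per library, Qtrt1-/- left of wild type. Scn2b and Scn3b lie above the other members drawn on average, and the 2 genotypes overlap for most members.

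Several Scn genes lie side by side in the genome and have similar sequences. In the RefSeq order of mouse genes, Scn3a neighbours Scn2a, and Scn1a, Scn9a and Scn7a follow each other on chromosome 2. The sources used here do not say how footprints that match more than 1 paralog were counted, so low values of Scn9a, Scn10a and Scn11a cannot be told apart from reads of their relatives.

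In footprints of females, 4 of the 27 tested subunits fell in Qtrt1-/- animals and none rose. The 4 were Cacna1i (a T-type pore), Cacnb3 (a calcium channel beta subunit), Scn7a (a sodium channel relative that responds to sodium concentration) and Cacna1a (the P/Q-type pore). All genes together gave 928 calls among 13143, 7.06%, of which 4.25% were lower and 2.81% higher. The median log2 fold change was −0.07 over the 27 members and 0.00302 over all tested genes, and 11 members were above 0 and 16 below.

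Cacna1i was the subunit with the lowest adjusted p. Its footprint level was 114, 105 and 106 CPM in Qtrt1-/- females, against 181, 153 and 203 CPM in wild-type females. In males it was 83.7 and 101 CPM in Qtrt1-/- animals and 93.7 and 119.5 CPM in wild-type animals. The female groups did not overlap, whereas the male groups did. The share of all genes whose groups are apart is not given, so separation does not single out a subunit, here or below. In females Cacna1i footprints fell by 0.72 ± 0.13 (log2) (edgeR quasi-likelihood test with Benjamini-Hochberg adjustment, standard error, adjusted p = 0.0099), and the male difference was −0.20 ± 0.16 (adjusted p = 0.963). With 1 animal left out at a time the female difference ranged from −0.82 to −0.62 and its edgeR adjusted p from 0.00445 to 0.0531. Wild-type females 1 and 3, the animals with the highest summed striatum markers (1732 and 1564 CPM), were also the highest in Cacna1i, while Qtrt1-/- female 2, next in that order at 964 CPM, had the lowest Cacna1i level among females. Without those 3 females, which leaves wild-type female 2 alone and assumes that it varies like the other groups, the difference was −0.47 (edgeR adjusted p = 0.588). With the choroid plexus and striatum levels of each library as covariates it was −0.76 (edgeR adjusted p = 0.972). Leaving out wild-type females 1 and 2, the lowest in choroid plexus markers, gave −0.89 (edgeR adjusted p = 0.0339), but keeps only wild-type female 3, the highest in Cacna1i, with the spread taken from the other groups.

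Cacna1i was lower in input RNA as well. Input levels were 152.5, 158 and 160.0 CPM in Qtrt1-/- females and 210.0, 193 and 252 CPM in wild-type females. In males they were 103 and 123 CPM in Qtrt1-/- animals, against 135 and 137 CPM in wild-type animals. Neither sex overlapped in input RNA. The female input level fell by 0.48 ± 0.09 (log2, edgeR adjusted p = 0.0202) and the level averaged over both sexes fell by 0.37 ± 0.07 (edgeR adjusted p = 0.0489). Male input RNA differed by −0.27 ± 0.12 (edgeR adjusted p = 0.555) and did not pass. The other T-type pores were Cacna1g, with −0.40 ± 0.15 in female footprints and −0.51 ± 0.13 in female input RNA (edgeR adjusted p = 0.121 and 0.0507), and Cacna1h, with −0.06 ± 0.12 and 0.24 ± 0.12. Neither passed the test. For Cacna1g all 3 Qtrt1-/- females lay below all wild-type females in footprints and in input RNA, which come from the same animals.

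**Figure D2:**
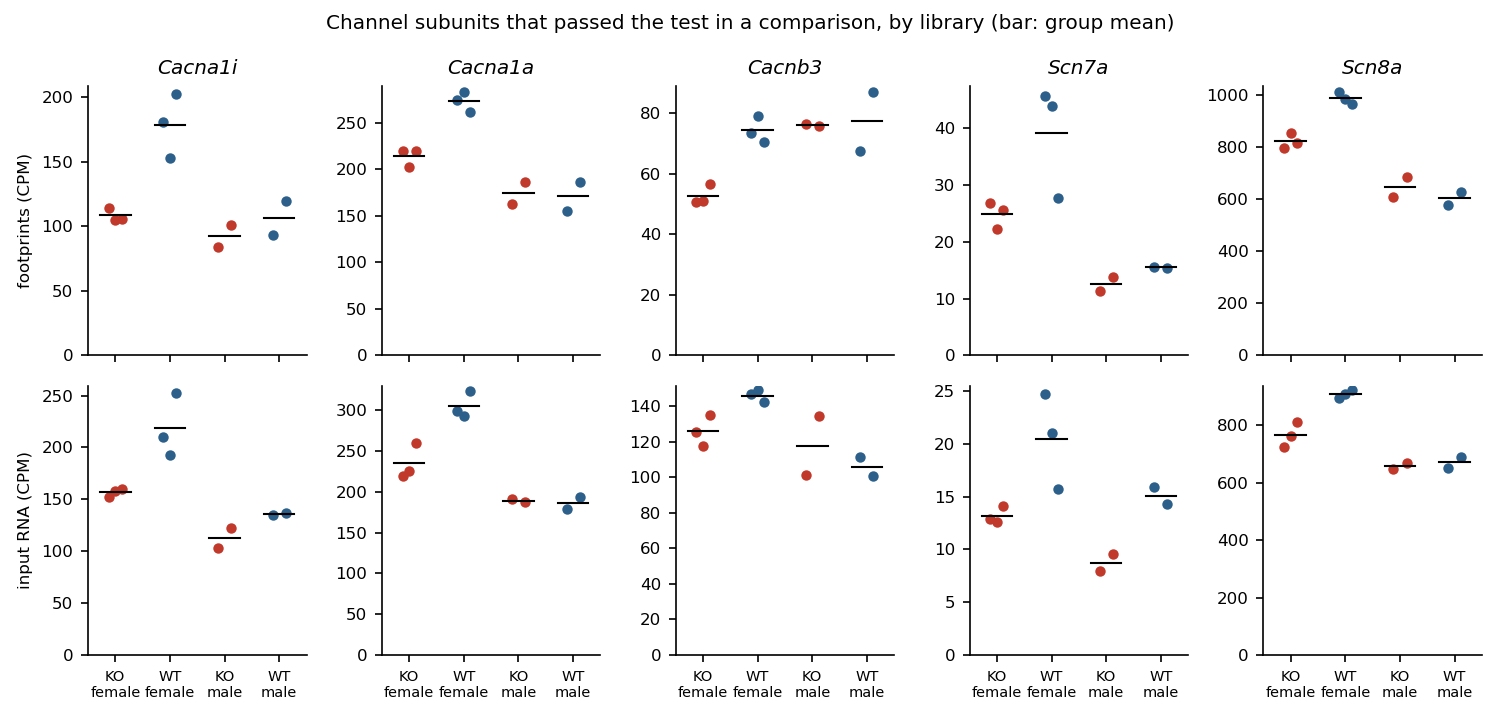
Footprint level (top) and input RNA level (bottom) in CPM of the 5 subunits called in at least 1 comparison, with 1 point per library and a bar at the group mean, Qtrt1-/- left of wild type within each sex. In females the genotypes are apart for all 5 genes in both assays, and the calls that chose these genes came from the same females. The share of all genes that are apart is not given here. In males the genotypes overlap for Cacna1a, Cacnb3 and Scn8a in both assays and for Cacna1i in footprints.

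Cacna1a, whose product gates transmitter release at most central synapses, followed the same direction in females. Its footprint level was 219.5, 202 and 219.9 CPM in Qtrt1-/- females and 274.5, 283 and 262 CPM in wild-type females. In males it was 163 and 186 CPM in Qtrt1-/- animals and 155 and 186.5 CPM in wild-type animals. The female groups were apart and the male groups overlapped. Female Cacna1a footprints fell by 0.35 ± 0.10, also in log2 (edgeR adjusted p = 0.0492), just inside the threshold. Female input RNA held 219, 225 and 260.1 CPM in Qtrt1-/- animals and 298.5, 293 and 323 CPM in wild-type animals, and fell by 0.38 ± 0.07 (edgeR adjusted p = 0.0203). Male footprints differed by 0.03 ± 0.12 and male input RNA by 0.02 ± 0.09. Without the 3 females highest in striatum markers, female footprints differed by −0.36 and female input RNA by −0.30 (edgeR adjusted p = 0.632 and 0.537). The N-type pore Cacna1b differed by −0.31 ± 0.11 in female footprints and the R-type pore Cacna1e by 0.04 ± 0.12, and neither passed (edgeR adjusted p = 0.105 and 0.858).

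Cacna1e, the highest of these pores, had footprint levels of 897, 734 and 782 CPM in Qtrt1-/- females and 714, 925 and 705 CPM in wild-type females. In males it had 587 and 655 CPM in Qtrt1-/- animals and 558 and 534 CPM in wild-type animals. Its female groups overlapped, and its male groups did not, by a small margin. The L-type pore Cacna1c, which couples activity to transcription, had 203, 169 and 176.5 CPM in Qtrt1-/- females and 139, 193.5 and 129 CPM in wild-type females, with 116.5 and 159 CPM in Qtrt1-/- males and 117 and 131 CPM in wild-type males. Both sexes overlapped for Cacna1c. Its female footprint difference was 0.25 ± 0.15 (edgeR adjusted p = 0.327), and the second neuronal L-type pore, Cacna1d, differed by 0.01 ± 0.15.

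Among the calcium channel beta subunits, Cacnb3 fell in female footprints. It had 50.5, 50.9 and 56.6 CPM in Qtrt1-/- females and 73.3, 79.1 and 70.3 CPM in wild-type females. In males it had 76.5 and 75.8 CPM in Qtrt1-/- animals, between the 67.4 and 87.1 CPM of wild-type animals. The female difference was −0.49 ± 0.12 (edgeR adjusted p = 0.0264). In female input RNA Cacnb3 had 126, 118 and 135 CPM in Qtrt1-/- animals and 147, 149 and 142 CPM in wild-type animals, with a difference of −0.21 ± 0.09 that did not pass (edgeR adjusted p = 0.234). Cacnb1, a beta subunit also used in muscle, was just outside the threshold in female footprints, at −0.39 ± 0.11 (edgeR adjusted p = 0.0508). Cacnb2 differed by 0.50 ± 0.24 (edgeR adjusted p = 0.208). Cacnb4, the highest of the class and a subunit whose loss causes epilepsy and ataxia in mice, had 136, 127 and 127 CPM in Qtrt1-/- females and 144, 96.1 and 156 CPM in wild-type females. In males Cacnb4 had 144 and 145 CPM in Qtrt1-/- animals and 140.5 and 166 CPM in wild-type animals. Cacnb4 footprints overlapped in both sexes, with a female difference of −0.02 ± 0.15.

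The alpha2delta subunits, which bind gabapentin-type drugs in the case of Cacna2d1 and Cacna2d2, gave no call. Cacna2d1 had footprint levels of 853, 722 and 767 CPM in Qtrt1-/- females and 743, 805 and 602 CPM in wild-type females. In males it had 442 and 577 CPM in Qtrt1-/- animals and 521 and 411 CPM in wild-type animals. All of these groups overlapped. The female differences were 0.12 ± 0.14 for Cacna2d1, −0.07 ± 0.17 for Cacna2d2, −0.16 ± 0.10 for Cacna2d3 and −0.49 ± 0.53 for Cacna2d4, which had 2 to 22 footprint counts per library (edgeR adjusted p from 0.321 to 0.836).

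Of the sodium channel alpha subunits, Scn7a fell in females in both assays. Footprint levels were 26.8, 22.3 and 25.7 CPM in Qtrt1-/- females and 45.7, 43.9 and 27.8 CPM in wild-type females. In males they were 11.4 and 13.9 CPM in Qtrt1-/- animals and 15.6 and 15.5 CPM in wild-type animals. No Qtrt1-/- library reached its wild-type counterparts in either sex, though wild-type female 3 came close. The female footprint level fell by 0.65 ± 0.17 (log2, edgeR adjusted p = 0.0427).

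Scn7a input RNA held 12.8, 12.6 and 14.1 CPM in Qtrt1-/- females and 24.7, 21.1 and 15.7 CPM in wild-type females. In males it held 7.91 and 9.57 CPM in Qtrt1-/- animals and 15.9 and 14.3 CPM in wild-type animals. Every Qtrt1-/- library again lay below the wild-type libraries of its sex. Input RNA fell by 0.64 ± 0.15 in females and by 0.71 ± 0.13 averaged over both sexes (edgeR adjusted p = 0.0429 and 0.0484), and the male difference was −0.79 ± 0.20 (edgeR adjusted p = 0.465). Wild-type females 1 and 2, the highest in Scn7a, were the lowest in choroid plexus markers, with footprint sums of 199 and 347 CPM against 6155 CPM in wild-type female 3. Without these 2 animals, so against wild-type female 3 alone and with the spread of the other groups, the female difference was −0.14 in footprints and −0.26 in input RNA (edgeR adjusted p = 0.80 and 0.513), and that over both sexes in input RNA was −0.52 (edgeR adjusted p = 0.0354). With marker levels as covariates, the female differences were −0.27 and −0.17 (edgeR adjusted p = 0.972 and 0.915).

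Scn8a, the main alpha subunit of the axon initial segment and nodes in adult neurons, fell in female input RNA. Input levels were 726, 763 and 810.1 CPM in Qtrt1-/- females, against 894, 910.4 and 925 CPM in wild-type females. In males they were 649 and 668 CPM in Qtrt1-/- animals, against 653 and 690.0 CPM in wild-type animals. The female groups were apart and the male groups overlapped. The female difference was −0.25 ± 0.06 (edgeR adjusted p = 0.0415). In footprints Scn8a had 796, 854 and 813 CPM in Qtrt1-/- females and 1011, 982 and 963 CPM in wild-type females, a difference of −0.26 ± 0.09 that missed the threshold (edgeR adjusted p = 0.0878). Male footprints were at 606 and 683 CPM in Qtrt1-/- animals and 575 and 628 CPM in wild-type animals.

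Scn2a, the highest alpha subunit averaged over wild-type animals, was not called in any comparison. It had 1014, 942 and 952 CPM of footprints in Qtrt1-/- females and 976, 963 and 917 CPM in wild-type females. In males it had 613 and 811 CPM in Qtrt1-/- animals and 689.5 and 684 CPM in wild-type animals. All groups overlapped in footprints, and the differences were 0.03 ± 0.10 in females and 0.05 ± 0.13 in males (edgeR adjusted p = 0.907 and 0.975). In female input RNA Scn2a had 1342 to 1419 CPM in Qtrt1-/- animals and 1475 to 1486 CPM in wild-type animals. These groups were apart, without a call. Scn1a, the alpha subunit of fast-spiking interneurons, differed by −0.25 ± 0.18 in female footprints and by −0.33 ± 0.14 in female input RNA (edgeR adjusted p = 0.419 and 0.212). Scn3a, which is mainly embryonic, and Scn9a differed by 0.17 and 0.22 in female footprints and did not pass.

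The sodium channel beta subunits Scn2b and Scn3b had positive differences in footprints of both sexes, and neither passed the test. Scn2b had 319, 334.5 and 303 CPM in Qtrt1-/- females and 302, 265 and 293 CPM in wild-type females, a difference of 0.15 ± 0.10. In males Scn2b had 304 and 301 CPM in Qtrt1-/- animals and 303 and 237.5 CPM in wild-type animals. Its female groups were narrowly apart and its male groups overlapped. Scn3b differed by 0.48 ± 0.18 in females and 0.45 ± 0.22 in males (edgeR adjusted p = 0.123 and 0.963). Scn3b also had positive differences in input RNA, of 0.43 ± 0.14 in females and 0.36 ± 0.17 in males (edgeR adjusted p = 0.115 and 0.584).

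In female input RNA as a whole, 4 of 28 tested members fell and none rose, namely Cacna1i, Cacna1a, Scn8a and Scn7a. Among all 14164 genes tested in input RNA 493, or 3.48%, were called, 2.73% lower and 0.748% higher. The median log2 fold change was −0.14 over the 28 members and 0.00922 over all genes, with 9 members above 0 and 19 below. Cacna1i, Cacna1a and Scn7a were thus called in both assays, while Cacnb3 was called in footprints and Scn8a in input RNA. Calls in females depended on single animals. In footprints the count of called members was 0 without Qtrt1-/- female 1 or without wild-type female 1, fits in which 37 of 13100 and 81 of 13110 genes were called at all, against 928 above. It was 1 without Qtrt1-/- female 2, 2 without Qtrt1-/- female 3 or wild-type female 2, and 6 without either wild-type male. In input RNA the count was 0 without Qtrt1-/- female 1, Qtrt1-/- female 2 or wild-type female 1, with 4 of 14128, 162 of 14121 and 46 of 14111 genes called. It was 1 without Qtrt1-/- female 3, 2 without wild-type female 3, and 11 without wild-type female 2, where 1030 of 14120 genes were called. The number of all genes called moved too and is not given for every fit, so these counts do not single out channel subunits. Without the 3 females highest in striatum markers, or with the marker levels as covariates, no member was called in either assay. Few genes were called at all in these fits, 1 of 13390 and 1 of 13143 in footprints and 7 of 14273 and 0 of 14164 in input RNA. In these fits Cacnb3 differed by −0.56 and −0.44 in female footprints and Scn8a by −0.25 and −0.26 in female input RNA, about as before. Scn7a and Cacna1i moved more. Over 18 alternative settings, female Scn7a ranged from −0.85 to −0.14 in footprints and from −0.795 to −0.17 in input RNA. Female Cacna1i ranged from −0.89 to −0.47 in footprints and from −0.69 to −0.31 in input RNA. The cause of these shifts was not tested.

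In males no member was called by edgeR in footprints or input RNA, and neither was any gene of the table (0% of 13143 and of 14164). At an unadjusted p under 0.05 there was 1 of 27 members in male footprints, beside 562 of 13143 genes. In male input RNA there were 3 of 28, beside 1246 of 14164 genes. DESeq2 called 0 members in both. Over both sexes no member was called in footprints by edgeR, against 0.00761% of all genes. There were 6 of 27 members at an unadjusted p under 0.05, beside 2576 of 13143 genes. DESeq2 called 4 members and 528 of 13143 genes there. Cacna1i came nearest, at −0.46 ± 0.10 (edgeR adjusted p = 0.0619). In input RNA over both sexes 2 of 28 members fell, Scn7a and Cacna1i, beside 0.734% of all genes called, 0.642% lower and 0.0918% higher. That count was 0 when any of the 5 Qtrt1-/- animals, wild-type female 1 or wild-type male 2 was left out. Leaving out wild-type female 3 gave 1, wild-type male 1 gave 5 and wild-type female 2 gave 7. How many of all genes were called in these fits is not given here, so the counts do not single out channel subunits.

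The genotype differences of the sexes were compared directly, as the female difference minus the male difference. No member was called by edgeR in footprints or in input RNA, nor was any gene (0%), and DESeq2 called no member. At an unadjusted p under 0.05 there were 5 of 27 members in footprints, beside 1109 of 13143 genes. In input RNA there were 4 of 28, beside 1339 of 14164 genes. All of these members had the more negative difference in females. In footprints Cacnb3 gave −0.48 ± 0.18 and Cacna1i −0.52 ± 0.20 (edgeR adjusted p = 0.502 and 0.523). For Cacna1a the values were −0.38 ± 0.16 in footprints and −0.40 ± 0.12 in input RNA (edgeR adjusted p = 0.559 and 0.331). A call in females that is missing in males is therefore not shown to be a difference between the sexes.

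**Figure D3:**
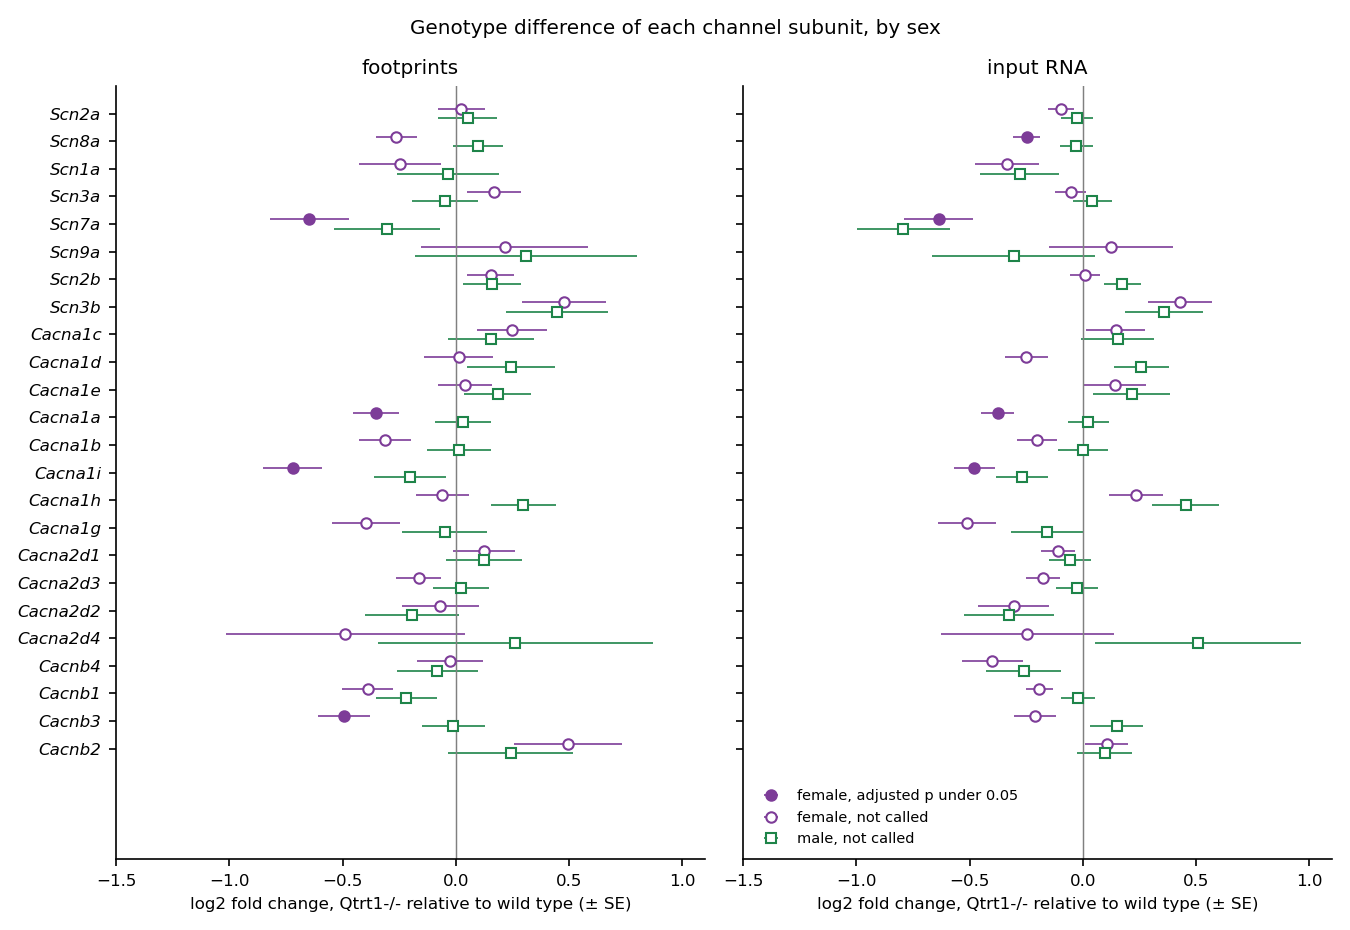
Log2 fold change of Qtrt1-/- relative to wild type with its standard error for 24 members tested in both assays, in females (circles) and males (squares), footprints left and input RNA right. Filled circles mark the 4 members called in female footprints and the 4 called in female input RNA, and no male value was called.

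The ratio of footprints to input RNA differed widely between subunits and little between genotypes. A ratio of 0 means an equal CPM in both assays, with a prior count of 2 added. In the 5 wild-type animals the log2 ratio of footprint CPM to input CPM was highest for Cacna2d2, at 1.34 ± 0.13, for Scn3b, at 1.31 ± 0.18, and for Scn2b, at 1.11 ± 0.11 (SD, n = 5). It was lowest for Scn9a, at −1.46 ± 0.53, Scn1a, at −1.44 ± 0.25, and Cacna1d, at −1.39 ± 0.20. The sodium channel alpha subunits Scn2a and Scn8a, which had nearly the same mean wild-type footprint level, were at −0.75 ± 0.16 and 0.00 ± 0.16. Cacna2d1, Cacna2d2 and Cacna2d3 were above 0 in all animals, and the beta subunits of the calcium channel were below 0 on average. The sexes differed for some subunits, and the means and SDs pool them. Cacnb1 was at 0.295 and 0.486 in wild-type males and at −0.39 to −0.21 in wild-type females. Scn7a was at −0.03 and 0.11 in wild-type males and at 0.815 to 1.05 in wild-type females.

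**Figure D4:**
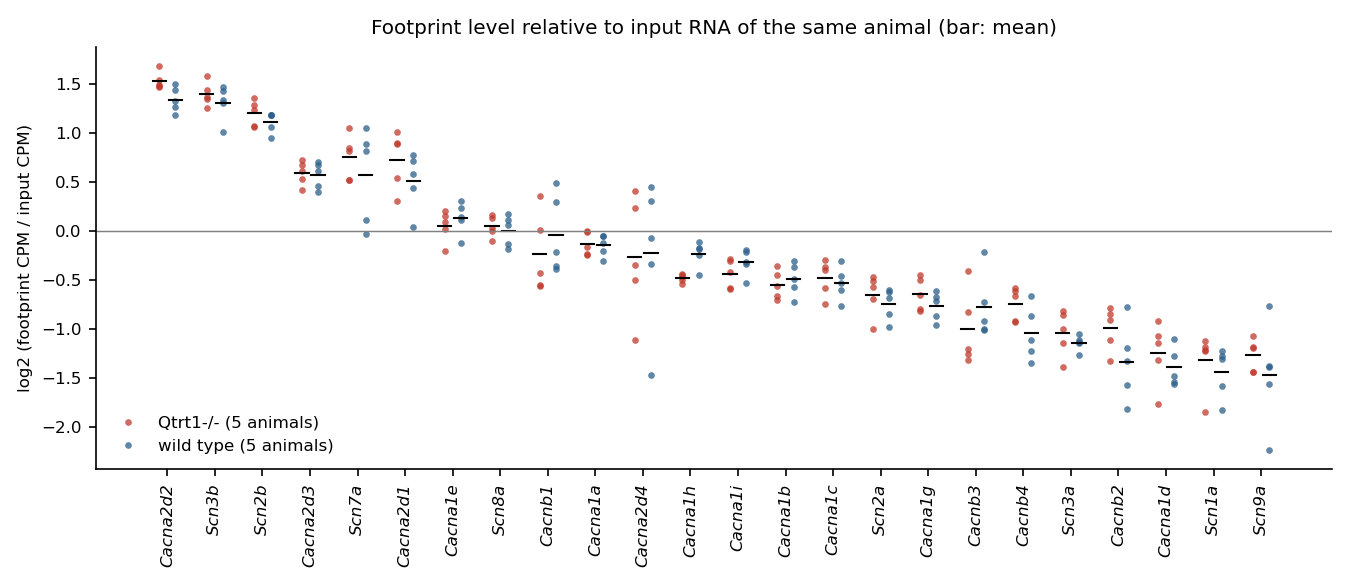
Log2 ratio of footprint CPM to input CPM in each animal for 24 members, ordered by the wild-type mean, Qtrt1-/- left of wild type, with a bar at the mean. Cacna2d2, Scn3b and Scn2b lie above 0.9 in all animals, and Scn1a lies below −1.1.

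Translational efficiency, the footprint difference minus the input difference in 1 model, gave no call by edgeR for any of the 29 members tested. In females 0.0424% of 14146 genes were called, and in males and over both sexes 0%. At an unadjusted p under 0.05 there was 1 member in females, beside 1787 of 14146 genes, and 1 over both sexes, beside 1458 genes. DESeq2 called 0 members. Footprint and input libraries of an animal come from the same lysate, so the model was also fitted with the animal as a block. With that block 2.79% of all genes were called in females, in males 0.00707% and over both sexes 0.806%, and 1 member was called, Cacnb4 in females. Its log2 ratio of footprints to input was −0.66, −0.92 and −0.93 in Qtrt1-/- females, against −1.11, −1.34 and −1.23 in wild-type females, and the groups did not overlap. The blocked difference was 0.40 ± 0.10 (edgeR adjusted p = 0.0347), and without the block it was 0.39 ± 0.21 (edgeR adjusted p = 0.461). The ratio moved with input RNA, since Cacnb4 differed by −0.40 ± 0.13 in female input RNA (edgeR adjusted p = 0.121) and by −0.02 ± 0.15 in footprints. Males had −0.58 and −0.62 in Qtrt1-/- animals and −0.66 and −0.87 in wild-type animals.

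Genes that work with the channels were counted in the same fits. Among 33 tested partners of sodium channels, such as anchoring and clustering proteins, 1 rose and 4 fell in female footprints, where 7.06% of all genes were called, and 1 rose and 3 fell in female input RNA, where 3.48% were called. Their medians were −0.04 and −0.05. Ank3, which encodes ankyrin-G, the scaffold that holds sodium channels at the axon initial segment, fell by 0.68 ± 0.12 in female footprints and by 0.54 ± 0.07 in female input RNA (edgeR adjusted p = 0.0099 and 0.0102). Over both sexes Ank3 input RNA fell by 0.32 ± 0.06 (edgeR adjusted p = 0.0484). Ank2 fell by 0.47 ± 0.12 and by 0.45 ± 0.07 (edgeR adjusted p = 0.0345 and 0.0122). The cell adhesion molecules Cntn2 and Nfasc fell in footprints by 0.52 ± 0.14 and by 0.36 ± 0.10 (edgeR adjusted p = 0.0436 and 0.0476). The gene that rose in footprints was Fyn, a tyrosine kinase, by 0.32 ± 0.09 (edgeR adjusted p = 0.048), named after its value was seen. In input RNA Fgf14, a cytoplasmic modulator of sodium channels, fell by 0.34 ± 0.08, and the syntrophin Sntb1 rose by 0.97 ± 0.17 (edgeR adjusted p = 0.0497 and 0.0139).

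Among 45 tested partners of calcium channels, many of them proteins of the presynaptic active zone, none rose and 6 fell in female footprints. In female input RNA none rose and 9 fell, and the medians in the 2 assays were −0.10 and −0.19. Of all genes, 4.25% were called lower and 2.81% higher in female footprints. The shares in female input RNA were 2.73% lower and 0.748% higher. Unc13a, which primes vesicles, fell by 0.71 ± 0.10 in footprints and by 0.36 ± 0.07 in input RNA, and Bsn, which encodes the scaffold bassoon, by 0.62 ± 0.12 and by 0.47 ± 0.08 (edgeR adjusted p from 0.00677 to 0.0154). Shank3 and Cabp1, a calcium-binding modulator of the channels, fell in footprints by 0.66 ± 0.14 and by 0.61 ± 0.16 (edgeR adjusted p = 0.0191 and 0.0357). Rims1, which tethers calcium channels at release sites, and Tspoap1, a RIM-binding protein, fell in input RNA by 0.32 ± 0.06 and by 0.38 ± 0.07 (edgeR adjusted p = 0.0139 and 0.0162). Of 20 potassium channel alpha subunits, 1 rose and 2 fell in female footprints and 2 fell in female input RNA, beside the same shares of all genes. Kcnn2, a calcium-activated channel, rose in footprints by 0.58 ± 0.16 (edgeR adjusted p = 0.0422). Kcna6 fell in footprints by 0.37 ± 0.10 and Kcnq5 in input RNA by 0.55 ± 0.10 (edgeR adjusted p = 0.0444 and 0.0169). The same marker settings were applied to the 3 lists in females, after the data were seen. Without the 3 females highest in striatum markers, or with marker levels as covariates, no gene of the lists was called in either assay. Without wild-type females 1 and 2 none was called in footprints, and 1, 6 and 2 of the sodium partners, calcium partners and potassium channels were called in input RNA. The Ank3 footprint difference was −0.52 to −0.77 over these 3 settings. Ank2 footprints differed by −0.31 to −0.55, Bsn footprints by −0.39 to −0.705 and Cabp1 footprints by −0.37 to −0.74. In input RNA Fgf14 differed by −0.19 to −0.415 and Sntb1 by 0.56 to 1.32, so sizes moved both ways.

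The authors' codon tables give the footprints on each codon of an mRNA and bear on the codons that queuosine tRNAs read. Of the 31 members 13 were listed at all, and Cacna2d3 and Scn7a held 82.8% and 15.7% of the 628 to 2153 channel footprints per library. The tables held few footprints of subunits that were abundant in the count table, such as 6 in all for Scn8a, and the sources used here do not say how mRNAs were selected. The codon results thus concern Cacna2d3, an alpha2delta subunit on chromosome 14, and Scn7a on chromosome 2. Listed codons matched the GENCODE M21 coding sequence at 814 of 814 checked positions when the start codon was numbered 0. Of the 1091 codons of Cacna2d3, 16.7% were read by queuosine tRNAs, and of the 1681 codons of Scn7a 13%.

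The 5 codons with the highest mean wild-type occupancy, the coverage of a codon relative to the mean over its mRNA, are shown to give the sequence under the largest peaks. Capitals mark the listed codon and the codon before it, and the sequence is the sense strand from GENCODE M21.
Cacna2d3 codon 778: gagcagatcGCAGGAagctttgtctat
Cacna2d3 codon 84: gaaatcgacGGTCTCcaactggtgaag
Scn7a codon 1546: gctgctctgGATCCTcctcttttcatg
Scn7a codon 821: gtgactgaaTCTGAGagtcaatctctg
Cacna2d3 codon 681: aaaggcaagGAGCCTctgcttcaatgt

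None of the 5 listed codons is read by a queuosine tRNA, and the codon before the listed one is such a codon, GAT, only at Scn7a codon 1546. Since wild-type values chose these sites, genotypes were not tested there. At Cacna2d3 codon 778, a glycine codon, occupancy was 16.4, 24.5 and 33.1 in Qtrt1-/- females and 25.0, 50.3 and 37.5 in wild-type females. In males it was 16.1 and 13.4 in Qtrt1-/- animals and 43.7 and 65.1 in wild-type animals. Females overlapped and males did not. At Cacna2d3 codon 84 the means were 40.6 in Qtrt1-/- and 39.7 in wild-type libraries, and at Scn7a codon 1546 they were 43.1 in Qtrt1-/- and 34.7 in wild-type libraries. At Scn7a codon 821 they were 30.5 in Qtrt1-/- and 34.3 in wild-type libraries, and at Cacna2d3 codon 681 they were 22.8 in Qtrt1-/- and 33.9 in wild-type libraries. The Scn7a sites rest on 1 to 11 footprints per library.

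The share of channel footprints on queuosine codons was higher in Qtrt1-/- libraries in each sex, by a difference that did not pass after adjustment. The share of footprints whose listed codon was 1 of the 8 codons for asparagine, aspartate, histidine and tyrosine was 26.95, 25.81 and 26.3% in Qtrt1-/- females, against 23.0, 22.99 and 25.02% in wild-type females. In males it was 25.93 and 27.82% in Qtrt1-/- animals, against 22.39 and 25.0% in wild-type animals. All 5 Qtrt1-/- libraries lay above the wild-type libraries of their sex. Single libraries had 95% Wilson intervals from 20.7 to 24.2% for the deepest, wild-type male 1, to 21.8 to 28.5% for the shallowest, wild-type male 2, and these cover counting error only. The means were 26.56 ± 0.83% in Qtrt1-/- and 23.68 ± 1.24% in wild-type libraries (SD, n = 5 each). The difference was 2.93 percentage points (exact two-sided permutation test of genotype within sex, p = 0.0167, the smallest that 120 assignments can give). The exact permutation p, adjusted by Benjamini-Hochberg over the 60 codon shares tested for both sexes, was 0.0716 and did not pass. Passing would have needed more of the 60 shares at the smallest p, so the number of animals limits this outcome. Females differed by 2.68 points and males by 3.18 (exact permutation p = 0.10 and 0.333, each the smallest its sex allows).

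All other mRNAs shifted in the same direction, with 18.94 ± 0.38% in Qtrt1-/- and 17.49 ± 0.56% in wild-type libraries, a difference of 1.48 points (exact permutation p = 0.0167, adjusted 0.0716). The channel difference exceeded that of the other mRNAs by 1.46 points, which did not pass (exact permutation p = 0.0833). Without codons whose occupancy was over 20 the channel difference was 1.71 points (exact permutation p = 0.217). A control set of 6 codons that also end in C or T, those of phenylalanine and cysteine and the AG-initial codons of serine, differed by −0.74 points on channel mRNAs (exact permutation p = 0.117). Cacna2d3 alone gave 28.29 ± 1.37% in Qtrt1-/- and 25.57 ± 1.42% in wild-type libraries, a difference of 2.78 points (exact permutation p = 0.0167, adjusted 0.0716). On Scn7a, with 80 to 293 footprints per library, the shares were 16.88 ± 2.75% in Qtrt1-/- and 15.84 ± 2.82% in wild-type libraries. Their difference of 0.91 points did not pass (exact permutation p = 0.55). The pooled channel difference of 2.93 points was above that of either mRNA alone. It also depends on how channel footprints divided between Cacna2d3 and Scn7a, which varied between libraries. What this division adds to the pooled difference, or to its excess over other mRNAs, was not tested.

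**Figure D5:**
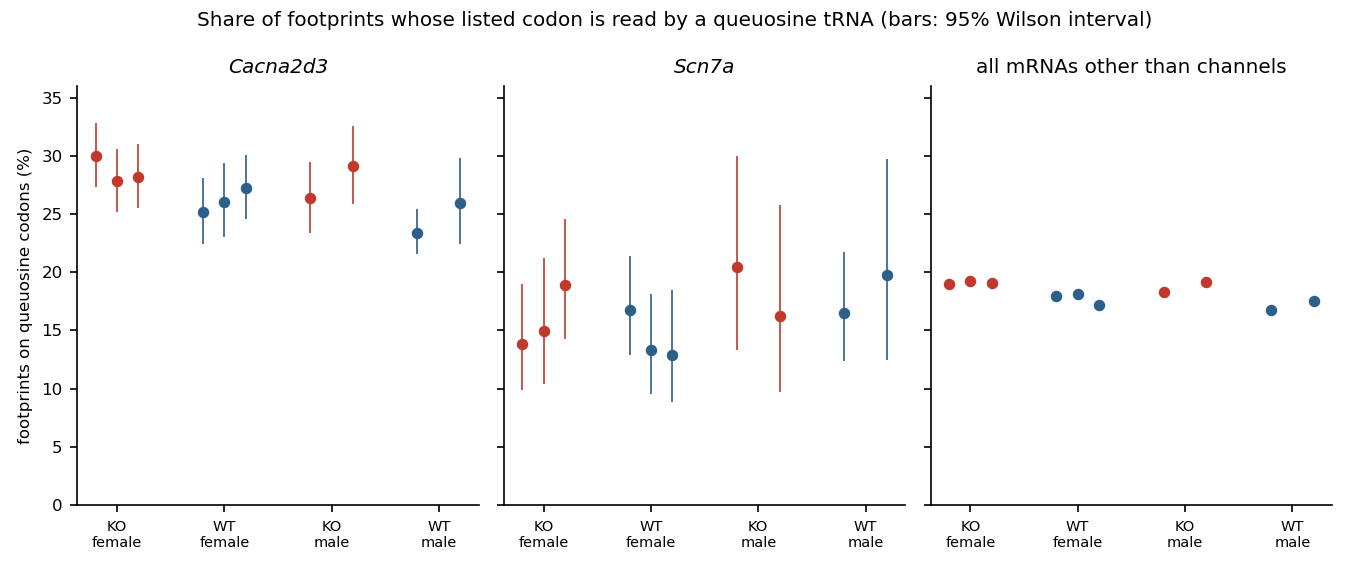
Percent of footprints whose listed codon is read by a queuosine tRNA, per library with its 95% Wilson interval, on Cacna2d3, on Scn7a and on all mRNAs other than channels, Qtrt1-/- left of wild type within each sex. On Cacna2d3 the 5 Qtrt1-/- libraries lie at 26.37 to 29.97% and the wild-type libraries at 23.41 to 27.26%.

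By amino acid, aspartate codons had the largest difference over both sexes at the listed codon. Their share of channel footprints was 14.14 ± 0.81% in Qtrt1-/- and 12.28 ± 1.09% in wild-type libraries, a difference of 1.96 points (exact permutation p = 0.0333). Histidine, tyrosine and asparagine codons differed by 0.71, 0.33 and −0.06 points (exact permutation p = 0.0667, 0.533 and 0.917). Within females aspartate and histidine codons differed by 1.47 and 1.43 points and asparagine codons by −0.98 (exact permutation p = 0.20, 0.10 and 0.20). Within males they differed by 2.45, −0.01 and 0.86 points (exact permutation p = 0.333, 1.0 and 0.667). At the codon just upstream of the listed one, which could be looked up for 80.6 to 87.3% of channel footprints, the queuosine share was 25.66 ± 2.41% in Qtrt1-/- and 22.94 ± 1.19% in wild-type libraries. That difference was 2.70 points (exact permutation p = 0.0333, adjusted 0.111). At this position tyrosine codons gave 5.96 ± 1.17% in Qtrt1-/- and 3.71 ± 0.70% in wild-type libraries, a difference of 2.11 points (exact permutation p = 0.0167, adjusted 0.0716), beside 1.04 points on all other mRNAs. The control codons differed there too, by 1.68 points on channel mRNAs (exact permutation p = 0.0167). Aspartate codons upstream ran the other way on Scn7a, with 15.23 ± 5.15% in Qtrt1-/- and 19.98 ± 3.76% in wild-type libraries (difference −5.16 points, exact permutation p = 0.0167, adjusted 0.0716). On all other mRNAs they differed by −1.60 points, and on Cacna2d3 by −0.42 points (exact permutation p = 0.0167 and 0.633).

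The 4 queuosine codons of Cacna2d3 with the most footprints over all libraries are shown as single sites behind that share. They were chosen after the values were seen, by their totals over both genotypes, and capitals mark the listed codon.
Cacna2d3 codon 749: ctcaccaatcagGACtttctgaaggct
Cacna2d3 codon 686: ctgcttcaatgtGACaaagaattgatt
Cacna2d3 codon 764: tttaatgccgatCATttccctctctgg
Cacna2d3 codon 849: tccataagctgcGATgacgagactgtg

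None of the 4 codons passed by itself. Codon 749, an aspartate codon with 279 footprints, held 3.01 ± 1.04% of Cacna2d3 footprints in Qtrt1-/- and 2.84 ± 0.75% in wild-type libraries (exact permutation p = 0.833). Codon 686, also aspartate, held 2.57 ± 0.74% in Qtrt1-/- and 1.69 ± 0.49% in wild-type libraries (exact permutation p = 0.10). The histidine codon 764 held 2.08 ± 0.62% in Qtrt1-/- and 1.92 ± 0.75% in wild-type libraries, and the aspartate codon 849 held 2.29 ± 0.49% in Qtrt1-/- and 1.84 ± 0.82% in wild-type libraries (exact permutation p = 0.817 and 0.45). All 4 means were higher in Qtrt1-/- libraries, and the libraries of the genotypes overlapped at each site.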

How the data were processed

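The authors deposited raw whole-number counts for each gene symbol in 10 footprint and 10 input libraries. Their codon tables, 1 for each footprint library, give, per the file headers, counts of footprints per codon, single-codon occupancy (a ratio to the mean coverage of the mRNA) and the percent of coding sequence covered. The submitters' processing notes name SAMtools 0.1.19, Trimmomatic 0.39, cutadapt 1.8.1 and Bowtie in versions 1.0.0 and 1.2.2. Genome build, counting program and use of strand: not given in the sources used here. No coordinates are printed.

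Each assay was fitted over all its groups with edgeR 4.0.16 in R 4.3.3 (filterByExpr, TMM, quasi-likelihood F test, Benjamini-Hochberg over all genes, called under 0.05), tested on simulated data. DESeq2 1.42.0 was an alternative. Standard errors derive from the fold change and its F statistic. CPM is the count per 1e6 of the TMM effective library size, set within each assay, and footprint to input ratios add a prior count of 2. Coding length is the longest in GENCODE M21. Codon shares were compared by exact two-sided permutation of genotype within sex, with Benjamini-Hochberg adjustment over the 60 shares tested.

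Values in every library are given for members called in a comparison and for the highest of each class. Of each partner list at most 4 called genes per comparison are named, lowest adjusted p first. Of codon sites the 5 highest in wild type are named, and the others were chosen after their values were seen. Members, lists and alternatives were chosen with earlier results of these data known. Replicates are separate animals per the labels, and footprint and input libraries of an animal share a lysate. RefSeq gene order (GRCm38.p6) served for neighbours. Deposited mean and SD tables of codon enrichment hold no value per gene and were not used. Some items are not reported here.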

Additional observations from a re-analysis of the deposited data

How the results depend on the processing

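Counts of called subunits moved with the processing, and the cause was not tested except where fewer animals or added terms set it. The number of all genes called also moved between fits, as given above for several of them. It is not given for each setting here, so the counts in this section do not single out channel subunits. In female footprints (4 called) libraries of females alone gave 8, leaving out both wild-type females lowest in choroid plexus markers gave 1 (Cacna1i), and leaving out the 3 females highest in striatum markers or adding both marker levels as covariates gave 0. In female input RNA (4) DESeq2 gave 7, and the last 2 settings gave 0 each. Over both sexes, footprints (0) gave 4 with DESeq2 and 2 with no filter on low counts. Input RNA over both sexes (2) gave 6 with DESeq2, 5 without the wild-type females lowest in choroid plexus markers, and 0 without the 3 females highest in striatum markers and with covariates. Leaving out 1 animal at a time gave 0 to 6 called members in female footprints, 0 to 11 in female input RNA, 0 to 6 in footprints over both sexes and 0 to 7 in input RNA over both sexes. The 5 called subunits kept their sign in the comparisons where they were called, and other subunits were not followed over the settings.

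Replicate numbers were not taken as pairs, although males of 1 number share an age. Between same-numbered libraries of both genotypes, deviations from the group means correlated at −0.0746 for males and −0.208 to −0.124 for females in footprints. In input RNA they correlated at 0.096 for males and −0.211 to −0.113 for females. With 2 males per genotype, both male pairs give the same value by construction, which limits this check. With the replicate block the count was 1 in female footprints, 3 in female input RNA (Cacna1a, Cacna1g and Cacna1i, without Scn7a and Scn8a), 0 in input RNA over both sexes and, with animals as the block, 1 in female translational efficiency (Cacnb4).

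The queuosine difference over both sexes at the listed codon (2.93 points) was 1.71 without codons of occupancy over 20, and 0.0483 as a ratio to all other mRNAs. Upstream (2.70) it was 2.35 without those codons and 2.37 with the upstream codon read from GENCODE, an alternative chosen after seeing the data, like the values for Cacna2d3 alone. Leaving out 1 animal gave 2.28 to 3.59 and 1.79 to 3.33. A version without the 3 members with the most footprints was not run, as 11 footprints were left in 1 library. Cacna2d3 alone had at least 100 footprints in every library, which limits single-codon comparisons.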
